A study of Mus musculus with 7 samples.

Results

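The genes of the MHC class II antigen presentation pathway were followed on 7 one-colour microarrays of mouse dendritic cells. They are the 10 genes H2-Aa, H2-Ab1, H2-Eb1, Cd74, H2-DMa, H2-DMb1, H2-DMb2, H2-Oa, H2-Ob and Ciita. The genes were chosen by name, with earlier results of these data known. Their RefSeq accessions picked out 12 of the 55681 probes on the array, 1 probe for each gene except H2-Ab1 and H2-Ob, which had 2 each. All 12 probes were well above background on all 7 arrays, none was saturated or marked as an outlier, and all 12 were among the 34110 probes tested.

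MHC class II molecules are pairs of an alpha and a beta chain that show peptides from endocytosed proteins to CD4+ T cells, and dendritic cells are among the cells that carry most of them. New chains assemble on the invariant chain, which fills the peptide groove and leads them to late endosomes. There proteases cut it down to a short stub, the H2-DM molecule exchanges that stub for peptides, and the H2-O molecule restrains H2-DM. Transcription of these genes depends on CIITA, a coactivator that does not bind DNA itself but docks on proteins assembled over shared promoter boxes.

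Arrays labelled knockout (n = 3) came from C57BL/6 Gata2(f/f)/ER-Cre mice, which carry floxed Gata2 alleles and a tamoxifen-inducible Cre recombinase, and control arrays (n = 4) from Gata2(f/f) mice without the Cre. Mice of both genotypes received tamoxifen between day 1 and day 10, and common myeloid progenitors sorted on days 20 to 22 were grown into dendritic cells with FLT3-L at 200 ng/ml on bone marrow feeder cells of SJL mice. The promoter that drives the Cre, the age of the mice, the number of mice behind each array and the way dendritic cells were parted from the feeders are not stated in the labels. The p-values therefore measure only the spread between these arrays, which may be technical, and since controls lacked the Cre, effects of Cre and of the deletion cannot be told apart. All arrays lay on a single slide with each group in its own row, so row and group cannot be told apart either.

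Levels are log2 values of the processed spot signal minus the 75th percentile of each array, so that 0 is that percentile. The Gata2 probe had its lowest and highest levels at 2.93 and 3.06 in the knockout-labelled group, against -0.25 and 0.36 in controls (log2 fold change 2.82, SE 0.18, limma adjusted p = 0.000415). It was higher where the label would give a lower level for a probe in the deleted part, and whether it lies in that part is not given, so every direction here is that of the arrays as labelled. The share of spots well above background was 61.5% to 67.4% on the arrays labelled knockout and 54.1% to 56.9% on the controls, and its part in the results was not tested. Of the conventional dendritic cell markers, 9 of 10 genes with a probe were tested, among them Flt3, Itgax and Zbtb46, each well above background on all 7 arrays, while Xcr1 was so on 1 array only. All 8 plasmacytoid dendritic cell markers were well above background on all arrays. The B cell markers Pax5, Ebf1 and Ms4a1 were well above background on at most 1 control array, and on 2 or 3 of the arrays labelled knockout with at least 1 probe each. Other B cell markers, Cd79b, Cd22, Fcmr and Blk, were well above background on all 7 arrays.

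None of the 12 class II probes was called higher or lower in the arrays labelled knockout. The limma fit over all tested probes, with Benjamini-Hochberg adjustment and a threshold of 0.05, gave adjusted p-values between 0.533 and 0.992 for them, and 0 of 12 had an unadjusted p under 0.05. Over all tested probes, 0.841% were called higher and 0.522% lower, and 10.6% had an unadjusted p under 0.05. No class II probe had all arrays labelled knockout above all controls, which 5.27% of all tested probes had. The log2 fold changes of the members ran from -0.32 to 0.17 with a median of -0.12, against a median of -0.03 over all tested probes. For 10 of the 12 probes the 95% interval of the fold change lay within 2-fold in both directions, as it did for 75.8% of all tested probes. Many of the latter are dimmer, and no level-matched share was computed. The other 2 class II probes, those of H2-DMb2 and Ciita, had intervals that reached 2.03-fold lower and 2.13-fold higher.

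**Figure D1:**
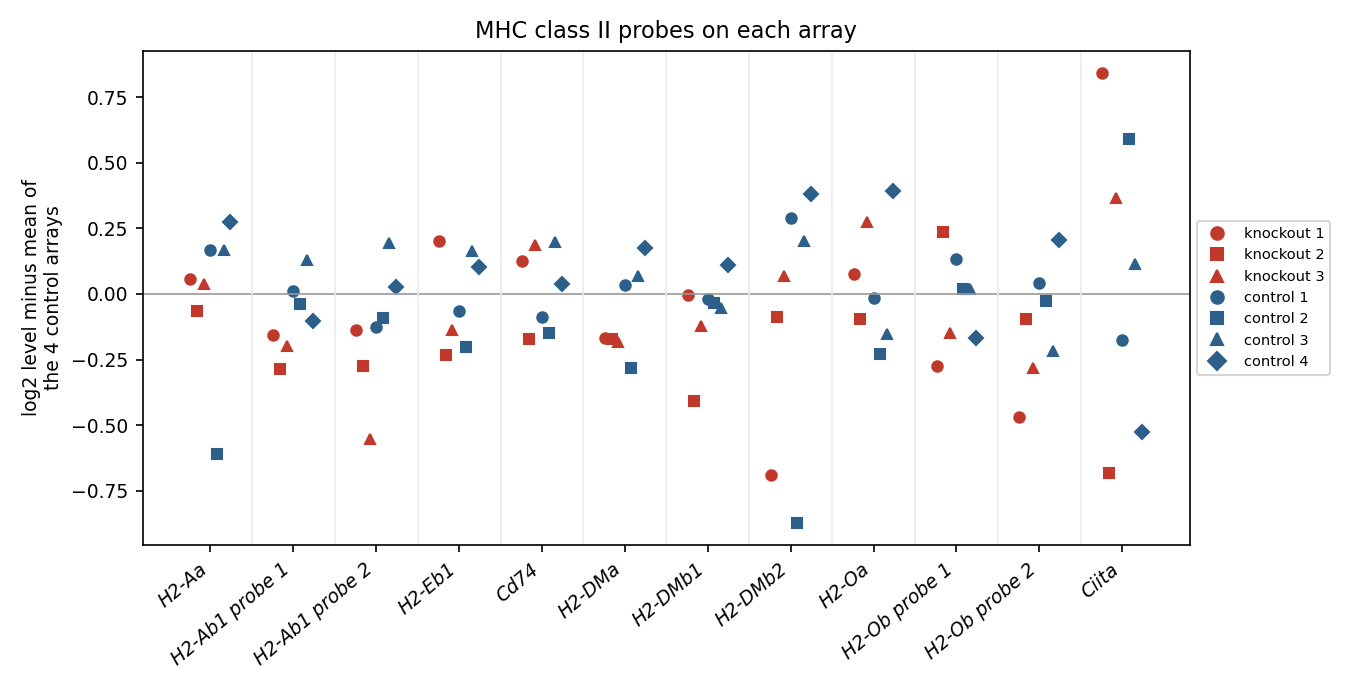
Level of each class II probe on each array (vertical axis, log2 level minus the mean of the 4 control arrays), with 1 point per array, coloured by group and shaped by replicate number. Most points lie within 0.5 log2 units of the control mean; control replicate 2 is low for H2-Aa and H2-DMb2, and Ciita spreads over the widest range, 1.53 log2 units.

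Promoter sequence shows what these genes share beyond their names. In the RefSeq promoter table (GRCm38.p6, 250 bases before to 50 after the transcription start), 7 of the 10 genes had an entry, and H2-Ab1, Cd74 and Ciita did not. A Y box core, TGATTGG on either strand, was in the promoters of 6 of these 7 genes and in 7.82% of all 32851 promoters. An X box core, GNAAC on either strand, is too short to mark a promoter alone and was in 84.8% of them. The X core followed by the Y core on the same strand with 15 to 35 bases between, on either strand, was in 5 of the 7 genes and in 0.569% of all promoters. The Y box is bound by NF-Y and the X box by RFX, on which CIITA docks. The stretches from the X to the Y box are shown so that the letters these promoters share can be compared, with both cores in capitals, 5′ to 3′ on the gene's strand. For H2-DMb2 the capitals mark the Y core alone.
H2-Aa (chr17:34287862-34287910, minus strand): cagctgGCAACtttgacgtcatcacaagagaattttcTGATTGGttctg
H2-Eb1 (chr17:34305770-34305817, plus strand): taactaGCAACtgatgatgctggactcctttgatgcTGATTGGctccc
H2-DMb1 (chr17:34153091-34153139, plus strand): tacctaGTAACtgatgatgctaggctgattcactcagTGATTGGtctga
H2-DMb2 (chr17:34145121-34145168, plus strand): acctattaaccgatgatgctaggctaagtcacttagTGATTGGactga
H2-Oa (chr17:34092297-34092345, plus strand): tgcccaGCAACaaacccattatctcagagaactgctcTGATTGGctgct
H2-Ob (chr17:34238812-34238857, plus strand): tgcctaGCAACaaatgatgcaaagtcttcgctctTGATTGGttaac

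The spacing between the cores was 23 to 26 bases in the 5 genes that held both. The H2-DMa promoters in the table held neither the Y core nor the pair. The motif letters were chosen after these promoters had been read, and a match is a description of the letters, not evidence of binding. All members but Cd74 and Ciita lie on chromosome 17, in the order H2-Oa, H2-DMa, H2-DMb2, H2-DMb1, H2-Ob, H2-Ab1, H2-Aa and H2-Eb1 in the RefSeq table. The class I loading genes Psmb9, Tap1, Psmb8 and Tap2 stand between H2-DMb1 and H2-Ob.

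The classical chains form the peptide-binding molecules themselves. H2-Aa, the alpha chain of the I-A molecule, read 5.01, 4.89 and 4.99 on replicates 1 to 3 labelled knockout and 5.12, 4.34, 5.12 and 5.23 on control replicates 1 to 4. The arrays labelled knockout lay inside the range of the controls, in which replicate 2 stood low. The log2 fold change was 0.01 (SE 0.23, 95% interval -0.52 to 0.54, limma adjusted p = 0.992). Without control replicate 2 the log2 fold change was -0.19 (adjusted p = 0.642).

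H2-Ab1 encodes the beta chain that pairs with H2-Aa, and was read by 2 probes. The first, A_55_P1962747, read 6.07, 5.94 and 6.03 on the arrays labelled knockout and 6.24, 6.19, 6.36 and 6.13 on the controls. The second, A_55_P2146560, read 6.20, 6.06 and 5.78 against 6.21, 6.24, 6.53 and 6.36. Both probes were lower on all 3 arrays labelled knockout than on all 4 controls, as were 5.97% of all tested probes, a share not matched for level. The log2 fold changes were -0.21 (SE 0.13, adjusted p = 0.613) and -0.32 (SE 0.16, adjusted p = 0.533), which correspond to 1.16-fold and 1.25-fold lower levels and did not pass. With quantile normalization they were 0.01 and -0.11, and the groups overlapped for both probes.

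H2-Eb1 encodes the beta chain of the I-E molecule, whose alpha chain gene is not expressed in C57BL/6 mice, so that this strain shows no I-E on the cell surface. It read 6.23, 5.80 and 5.90 on the arrays labelled knockout and 5.97, 5.83, 6.20 and 6.14 on the controls. The groups overlapped, and the log2 fold change was -0.06 (SE 0.16, 95% interval -0.44 to 0.33, adjusted p = 0.938). With quantile normalization its sign turned, at 0.15.

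Cd74, the invariant chain, was as close between the groups. It read 5.53, 5.24 and 5.60 on the arrays labelled knockout and 5.32, 5.26, 5.61 and 5.45 on the controls. The groups overlapped, and the log2 difference was 0.05 (SE 0.15, 95% interval -0.31 to 0.40, adjusted p = 0.945). Under quantile normalization the value was 0.23 (adjusted p = 0.635), with the 3 knockout-labelled arrays higher than every control, as for 7.03% of all tested probes under that setting.

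H2-DMa and H2-DMb1 encode the chains of the peptide exchange molecule, and H2-DMb2 a second form of its beta chain. H2-DMa read 5.39, 5.39 and 5.38 on the arrays labelled knockout, with an SD of 0.0086, and 5.60, 5.28, 5.63 and 5.74 on the controls. Control replicate 2 alone lay below the arrays labelled knockout, and the log2 fold change was -0.18 (SE 0.15, adjusted p = 0.716). H2-DMb1 read 5.14, 4.74 and 5.02 against 5.13, 5.11, 5.09 and 5.26. The controls were close together with an SD of 0.08, the groups overlapped through replicate 1 labelled knockout, and the log2 fold change was -0.18 (SE 0.14, adjusted p = 0.705).

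H2-DMb2 varied more than its neighbour. It read -0.87, -0.26 and -0.11 on the arrays labelled knockout and 0.11, -1.05, 0.03 and 0.20 on the controls. Replicate 1 labelled knockout and control replicate 2 were the low arrays, and the range over the 7 arrays was 2.38-fold, against 1.43-fold for H2-DMb1. The log2 fold change was -0.24 (SE 0.34, 95% interval -1.02 to 0.55, adjusted p = 0.847). Without control replicate 2 it was -0.53 (adjusted p = 0.457), and without replicate 1 labelled knockout it was -0.01. Both beta chain genes are close relatives, and how far their probes take up the transcript of the other was not tested.

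H2-Oa and H2-Ob encode the chains of the H2-O molecule, found mainly in B cells, thymic epithelium and some dendritic cells. H2-Oa read 2.75, 2.58 and 2.95 on the arrays labelled knockout and 2.66, 2.44, 2.52 and 3.06 on the controls, a log2 difference of 0.08 (SE 0.19, adjusted p = 0.912). Of the 2 probes of H2-Ob, A_55_P2082929 read 1.17, 1.68 and 1.29 against 1.57, 1.46, 1.46 and 1.27, and A_66_P130916 read 2.14, 2.51 and 2.32 against 2.65, 2.58, 2.39 and 2.81. The groups overlapped for all 3 probes. The H2-Ob log2 fold changes were -0.06 (SE 0.16, adjusted p = 0.928) and -0.28 (SE 0.16, adjusted p = 0.596), and both probes had the same sign.

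The log2 difference between H2-DM and H2-O chains within each array was compared between the groups. From controls to arrays labelled knockout, that between H2-DMa and H2-Oa moved by -0.26 (SD 0.18, n = 4, and SD 0.19, n = 3; two-sided exact permutation p = 0.1143, adjusted p = 1 over 10 pairs of member probes, not all of H2-DM with H2-O). That between H2-DMb1 and H2-Ob moved by -0.12 with the first H2-Ob probe and by 0.10 with the second (two-sided exact permutation p = 0.8 and 0.6286, adjusted p = 1 for both), so its sign depended on the probe. The smallest p that the 35 splits allow is 0.02857, and the 10 pairs were chosen after the values of the members were known.

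Ciita, the coactivator, had the widest range of the 12 probes. It read 2.72, 1.20 and 2.25 on the arrays labelled knockout and 1.70, 2.47, 1.99 and 1.36 on the controls, a range of 2.88-fold over the 7 arrays. Replicate 1 labelled knockout and control replicate 2 were the high arrays, and replicate 2 labelled knockout and control replicate 4 the low ones, so that each group held both. The difference in log2 was 0.17 (SE 0.39, 95% interval -0.74 to 1.09, adjusted p = 0.913). It was 0.60 without replicate 2 labelled knockout and -0.16 without replicate 1 of that group, and neither passed. Fewer cells that make a transcript and less RNA per cell cannot be told apart on these arrays.

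**Figure D2:**
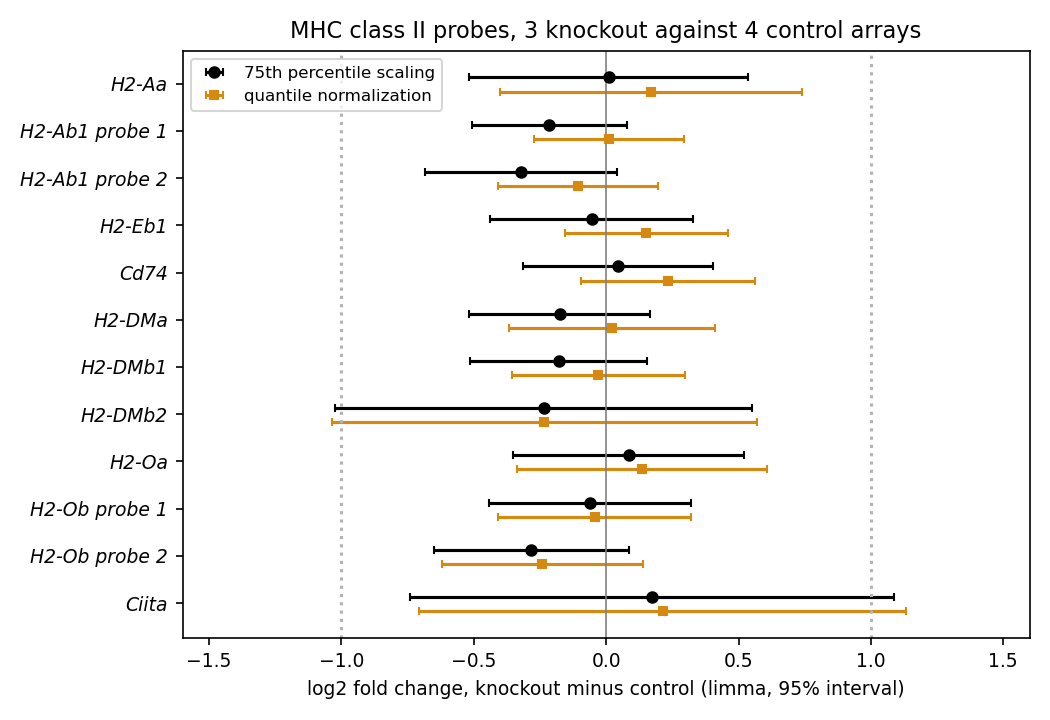
Log2 fold change of each class II probe, knockout minus control, with its 95% interval from the limma fit (horizontal axis), under 75th percentile scaling (circles) and quantile normalization (squares); dotted lines mark 2-fold. Every interval includes 0 under both settings, and those of H2-DMb2 and Ciita are the widest.

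The negative values of bright members were small, and most other bright probes had negative values too. Among the 2013 other tested probes with a mean level at or above 4.96, that of the dimmest classical chain probe, the median log2 fold change was -0.21 and 94.9% were below 0. With quantile normalization that median was -0.00 and 51.7% were below 0, and the median of the 12 class II probes was 0.02. That setting gives all arrays the same distribution, so a median near 0 among bright probes was largely fixed in advance. Whether the lower values come from the scaling was not tested. Of the class II probes, 8 were below 0 with percentile scaling and 5 with quantile normalization. Cd74 and H2-Eb1, at 0.05 and -0.06, lay above the 95th percentile of tested probes in the same 1 log2 unit of mean level, 0.03 and -0.08. They also did so with quantile normalization, at 0.23 and 0.15 against 0.22 and 0.14. For H2-Eb1 this depended on the edge of the bin, since its group means were 5.98 (knockout label) and 6.03 (controls). Against probes at levels 5 to 6, H2-Eb1 was below the 95th percentile with both scalings (0.03 and 0.22). Over the alternative settings, the second H2-Ab1 probe stayed negative in 19 of 19, while the sign turned in 6 for H2-Aa, 3 for Cd74, 2 for H2-Eb1 and 1 for the first H2-Ab1 probe. The filters, the floor, kept outlier spots, the variance model and 1 probe per gene left the members' fold changes as they were. Signs could not turn in those settings. The replicate block gave the same fold changes as leaving out control replicate 4.

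**Figure D3:**
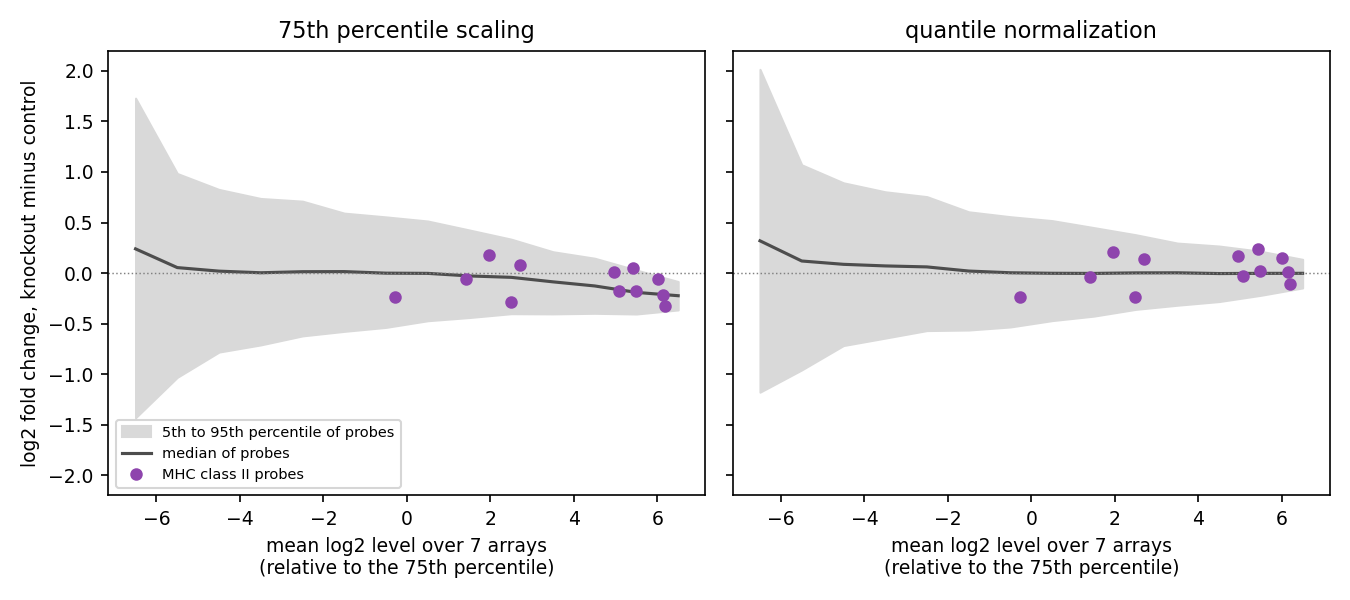
Log2 fold change, knockout minus control (vertical axis), against the mean log2 level over the 7 arrays (horizontal axis) for the class II probes (points), with the median and the 5th to 95th percentile of all tested probes in bins of 1 log2 unit, for each scaling. With percentile scaling the median falls to -0.22 in the brightest bin, and with quantile normalization it stays near 0 there, which that setting largely fixes in advance.

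The members differed in how closely the arrays of a group repeated each other. The residual SD of the first H2-Ab1 probe was 0.09 log2 units, reached or undercut by 1.95% of tested probes, and those of H2-DMb2 and Ciita were 0.52 and 0.61, above 84.4% and 88.9% of them. The median over the 12 probes was 0.19, against 0.26 over all tested probes, and no level-matched value was computed. Log2 fold changes of tested probes spread less at high levels. Their 5th to 95th percentile ran from -1.03 to 0.99 at levels -6 to -5 and from -0.41 to 0.03 at levels 5 to 6. Correlations across the 7 arrays were computed for all pairs of probes. For H2-Aa and H2-DMa, Pearson's r was 0.80 (exact permutation p = 0.0145, adjusted p = 0.517 over 66 pairs of probes) and Spearman's rho 0.93 (exact permutation p = 0.00675, adjusted p = 0.406). Without the 2 arrays farthest from the median of H2-Aa, r was 0.87, and over deviations from the group means it was 0.97. For H2-Aa and H2-DMb2, r was 0.80 (exact permutation p = 0.0157, adjusted p = 0.517) and rho 0.89 (exact permutation p = 0.0123, adjusted p = 0.406), r without those 2 arrays was 0.44, and r over deviations from the group means was 0.83.

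The pairs of Ciita with the genes it activates had no correlation that passed. With H2-Aa its r was -0.41 (exact permutation p = 0.397) and rho -0.32 (exact permutation p = 0.498), and r was 0.28 without the 2 arrays farthest from the median of H2-Aa. With H2-DMb2 its r was -0.71 (exact permutation p = 0.0843, adjusted p = 0.638) and rho -0.61 (exact permutation p = 0.167, adjusted p = 0.655). That relation rested on replicate 1 labelled knockout and control replicate 2, without which r was 0.04, and over deviations from the group means it was -0.70. None of the 66 pairs passed after adjustment.

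Genes around the class II pathway were taken from lists. Of 24 genes that bind class II promoters or regulate Ciita, all 24 were tested on 30 probes, and none was called, with a median log2 fold change of -0.04. Ifngr1, a chain of the interferon gamma receptor, stood at -0.45 on that scale (SE 0.18, adjusted p = 0.423). The RFX subunit genes Rfx5, Rfxap and Rfxank stood at 0.16, -0.02 and -0.25, and Irf8 and Spi1, factors of dendritic cell and myeloid identity, at -0.21 and -0.03.

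Of 20 genes of class II antigen processing and turnover, on 26 tested probes, 1 was called lower and none higher, where 0.522% of all tested probes were called lower. Cd63, a tetraspanin of late endosomes, fell from 4.07 ± 0.19 (SD, n = 4) to 2.13 ± 0.21 (SD, n = 3), with a fold change of -1.94 in log2 (SE 0.17, adjusted p = 0.00129). Ctss, the protease that removes most of the invariant chain in dendritic cells, stood at -0.47 (SE 0.17, adjusted p = 0.37), and Ctsl at -0.50 (SE 0.15, adjusted p = 0.23). The ubiquitin ligase gene Marchf1, which sends class II molecules to degradation, had log2 fold changes of -0.44 and -0.80 on its 2 probes (adjusted p = 0.229 and 0.482). The median of the list was -0.29, and 14 of 26 probes had all arrays labelled knockout below all controls, against 5.97% of all tested probes. With quantile normalization the median was -0.16 and 7 probes did so, against 4.37% of all tested probes. Many probes of the list are brighter than most tested probes, and these shares were not matched for level.

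The MHC class I genes and their loading factors formed another list. Of 20 genes on 23 tested probes none was called, and the median log2 fold change was -0.20, or -0.04 with quantile normalization. B2m, the light chain of class I molecules, stood at -0.43 (SE 0.20, adjusted p = 0.524). Tap2, a chain of the peptide transporter encoded among the class II genes, stood at -0.39 (SE 0.15, adjusted p = 0.403), and its partner Tap1 at -0.08 (SE 0.17, adjusted p = 0.904).

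**Figure D4:**
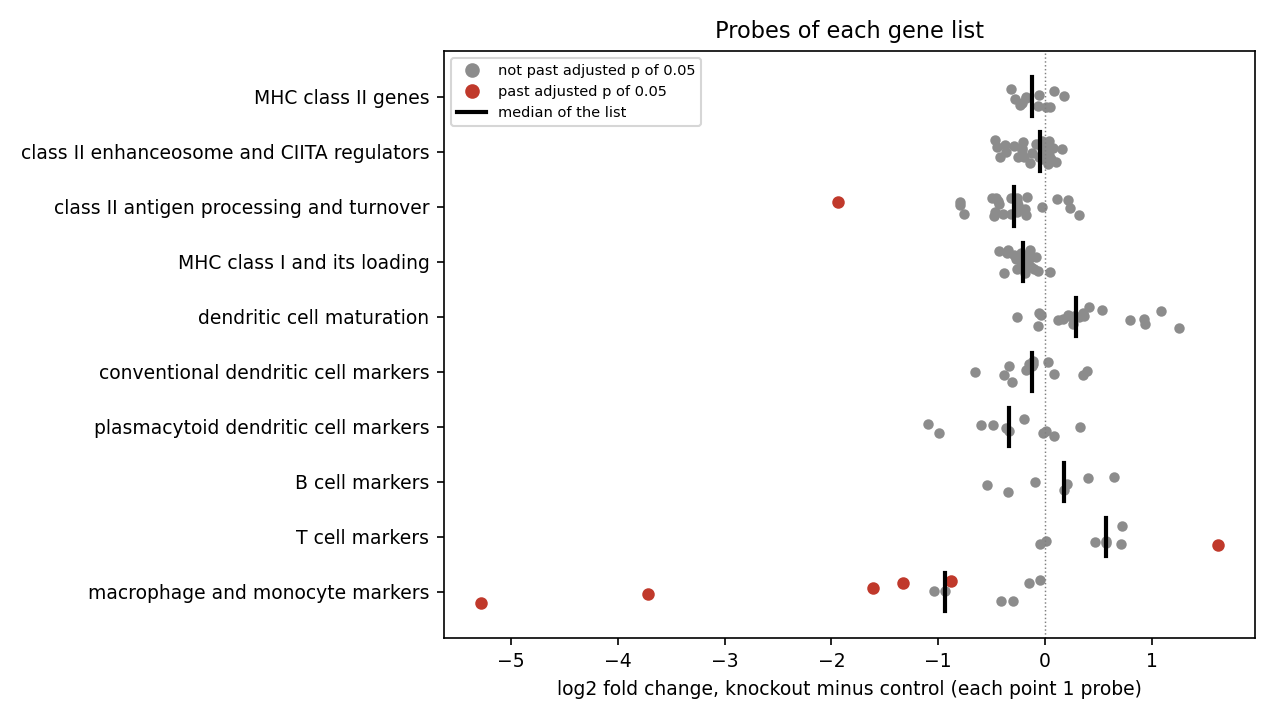
Log2 fold change, knockout minus control (horizontal axis), of each tested probe of the class II genes and of each gene list, with 1 point per probe, called probes in red and a bar at the median of each list. The 12 class II points lie between -0.32 and 0.17 and none is called; the called points belong to antigen processing (Cd63), T cell and macrophage lists.

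Markers of other cells that can carry class II were followed beside these values. Of 10 macrophage and monocyte markers with a probe, 8 were tested on 11 probes and 5 were called lower, on 5 of the 11 probes (45.5%, against 0.522% of all tested probes), with a median of -0.94. Their summed signal, in multiples of the 75th percentile, ran from 53.6 to 66.5 with the knockout label and from 79.8 to 97.0 in the controls. Cd14 fell from 1.66 to 0.05 (log2 fold change -1.61, SE 0.12, adjusted p = 0.000762) and Lyz2 from 2.98 to 1.65 (log2 fold change -1.33, SE 0.20, adjusted p = 0.0193). Adgre1, read by 2 probes, was called on 1 (log2 fold change -0.88, SE 0.16, adjusted p = 0.0451). C1qc was well above background on all 4 controls but on 1 of the 3 arrays labelled knockout. With dimmer arrays set at the lowest signal well above background, the group means of C1qc differed 10.68-fold, lower with the knockout label (limma adjusted p = 0.023). Without that floor the adjusted p was 0.035, and the 95% interval of the log2 fold change ran from -5.18 to -2.26. With the replicate block, the calls of Cd14, Cd63 and Lck were lost (limma adjusted p = 0.0615, 0.0573 and 0.0579), as were those of Adgre1, C1qc and Lyz2. With 1 array left out, the calls of Cd14, Cd63 and Lck were kept for each array. The call of Adgre1 was lost for each of the 7 arrays (adjusted p from 0.0591 to 0.23), that of C1qc for all but replicate 2 labelled knockout (0.0598 to 0.173), and that of Lyz2 for all but control replicates 2 and 4 (0.0523 to 0.0918).

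Of the conventional and plasmacytoid dendritic cell markers none was called, with medians of -0.13 and -0.33, or -0.07 and -0.14 with quantile normalization. The summed signal of the conventional markers was 98.8 to 102.1 against 105.8 to 112, without overlap, and that of the plasmacytoid markers 188.2 to 235.2 against 210.2 to 241.3. Bright probes weigh most in such sums, and bright probes in general were lower with percentile scaling (median log2 fold change -0.21). The sums were taken with that scaling only. Of the 13 conventional probes, 1 had all arrays labelled knockout below all controls and 1 above. Of the 11 plasmacytoid probes, 4 lay below and 0 above. Over all tested probes, not matched for level, these shares were 5.97% and 5.27%. None of the B cell markers was called, and their sums overlapped at 14.3 to 18.2 against 14.8 to 19.4. Of 8 T cell markers Lck, a signalling kinase, was called higher (log2 fold change 1.62, SE 0.12, adjusted p = 0.000767), where 0.841% of all tested probes were. The T cell receptor chains Cd3e and Cd3d stood at -0.05 and 0.01 (adjusted p = 0.93 and 0.994), the lowest values of the list. Most other probes of the list also stood above 0, none of them called. Over the 8 tested probes of the list the median log2 fold change was 0.58, with 7 above 0 and 1 below. For 3 of them, that of Lck and those of 1 other gene, the groups were apart with the knockout label higher (37.5%, against 5.27% of all tested probes). Only Lck was called. The summed signal of the list, to which Lck with its level of 2.04 against 0.42 gave the most, was 5.79 to 6.38 against 2.65 to 2.98. The part of these markers in the class II values was not tested.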

How the data were processed

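Per the labels' protocols, total RNA was amplified and given a Cy3 label. Spot intensity was taken from the authors' scanner files, which name version 10.7.3.1 of Agilent Feature Extraction in their headers and whose processed signal is background-subtracted. The deposited series table holds log2 values centred per probe on the median over the 7 arrays; scale and direction were found by comparison with the scanner values (slope and correlation of 1 for differences between arrays) and are not stated by the submitters. Its column medians lay between -0.02 and 0.

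Control spots (3671 of 62976) and spots marked as outliers were dropped before averaging those of each probe. The test took probes that 3 or more of the 7 arrays had well above background and that had at least 2 values in each group (34110). Names came from RefSeq accessions matched without versions to a GRCm38.p6 table (26413 probes, 47.4%); the scanner files name another build, and the only coordinates given are those of the RefSeq promoter table. All tested probes were fitted with limma 3.58.1 (lmFit, eBayes; R 4.3.3) and no block. The fit was tested on simulated data.

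The members and lists were chosen with earlier results of these data known. The named genes are all members, Gata2, up to 4 called genes per direction of each list or up to 2 as values where none was called, and the 5 genes most like the classical chains; Psmb9, Psmb8, Ctss, Ctsl, Marchf1, Tap1, Rfx5, Rfxap, Rfxank, Irf8, Spi1, Adgre1, Xcr1, Flt3, Itgax, Zbtb46, Pax5, Ebf1, Ms4a1, Cd79b, Cd22, Fcmr, Blk, Cd3e, Cd3d, Cd86 and H2-Eb2 were added after their values were seen. Some genes of the marker lists are not reported here. Alternative settings changed the background correction, the scaling, the source table, the filters, a floor, outlier spots, the variance model, array weights, 1 probe per gene, a replicate block and arrays left out. The mean signal was planned for normexp, and the median signal was used. The number of arrays limits the precision.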

Additional observations from a re-analysis of the deposited data

Results flagged for a closer look

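Among the 4 controls, replicate 2 stood apart from the others in H2-Aa, at 4.34 (gap to the nearest array 0.877 of the group's range), and in H2-DMb2, at -1.05 (0.859 of the range). Chance flags about 1 in 20 groups, and 12 probes were examined. On the same array Ciita read 2.47, the highest of the controls.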

How the results depend on the processing

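No class II probe was called under any of the 19 alternative settings (226 fits of a probe, smallest adjusted p = 0.121, log2 fold changes from -0.53 to 0.60), so both counts stayed at 0. The sign differed from that reported in 19 of these fits, some of which, such as those with other filters, could not change the fold change. Over the other lists 1 probe was called higher and 6 lower, and over all tested probes 287 and 178. With normexp 300 were lower, with the floor at each array's dimmest signal well above background 269. Without a filter the lists gave 6 higher and 13 lower, and all probes 847 and 9270. With array weights these were 4 and 12, and 759 and 559, and with 1 probe per gene 2 list genes were higher. Same-numbered arrays did not deviate together (correlations -0.06, -0.08 and -0.02), but so few arrays cannot settle whether the numbers mark pairs. With the replicate block, the lists gave 0 and 1 and all probes 81 and 67. With arrays left out 1 at a time, the lists gave 1 to 2 higher and 3 to 4 lower, and all probes 84 to 248 higher and 95 to 162 lower. Counts of all probes moved by over 1.5 times without replicate 1 (105 higher), 2 (168 higher) or 3 (84 higher, 95 lower) labelled knockout. Without both replicate 1 labelled knockout and control replicate 2, chosen after seeing the data for their Ciita levels, 3 list probes were lower, and over all probes 75 were higher, while the count of lower probes also dropped by over 1.5 times. The cause was not tested, and fewer arrays entered the fits without arrays.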

Other observations

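Genes of dendritic cell maturation formed a further list. Of 18 genes, 16 were tested on 20 probes and none was called, with a median log2 fold change of 0.29, or 0.33 with quantile normalization, and 16 probes were above 0. For 7 probes each knockout-labelled array exceeded each control, as for 5.27% of all tested probes. Several of the 7 were of the same gene, with Socs2 giving 3. Pdcd1lg2, the ligand PD-L2, had a log2 fold change of 1.26 (SE 0.33, limma adjusted p = 0.171), and Socs2, a cytokine signalling inhibitor, between 0.80 and 1.08 on 3 probes (adjusted p from 0.0855 to 0.246). The costimulator Cd86 stood at -0.07 (SE 0.21, adjusted p = 0.942).

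Of 14500 genes compared, the 5 whose level over the 7 arrays was most like the mean of the z-scored H2-Aa, H2-Ab1 and H2-Eb1 probes were H2-K1 (Pearson's r 0.98), Nhlrc3 (0.97), Mrpl19 (0.97), BC004004 (0.97) and Uck2 (0.97), given as a description over 7 arrays that share a slide. As many as 84 genes reached an r above 0.9. The probe of H2-Eb2, a class II gene outside the 10, was well above background on 2 of 7 arrays and was not tested.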
